A study of Homo sapiens with 36 samples.

Results

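The human mitochondrial genome carries 37 genes whose symbols start with MT-, and all of them were taken, out of 59041 genes summed in each library. They are 13 mRNAs, 2 rRNAs and 22 tRNAs, and the 3 classes were kept apart. The cells were HL60, MOLM13 and OCIAML3, established lines of human acute myeloid leukemia that the labels give as wild type (WT). For 24 h each line received DMSO alone as the solvent control, 0.1 µM cytarabine (a nucleoside analog that stalls DNA synthesis), 0.02 µM daunorubicin (a DNA intercalator that traps topoisomerase II) or both drugs at the same doses. HL60 and MOLM13 grew in RPMI and OCIAML3 in alpha-MEM with more serum, so line and medium cannot be told apart. Each of the 12 groups had 3 libraries labelled as biological replicates, 36 in all, and since no source used here says that they came from separate treatment days, a p-value measures only the spread between these samples.

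Mitochondria keep a small circular genome that is copied by its own polymerase and transcribed by POLRMT with the factors TFAM and TFB2M. Each strand is read as a long precursor that is processed at the tRNAs between the coding genes, so that the rRNAs and mRNAs of a strand start from shared transcripts and then differ in processing, polyadenylation and decay. The mRNAs all encode subunits of respiratory complexes I, III and IV or of the ATP synthase (complex V), the rRNAs and tRNAs serve the mitochondrial ribosome that translates them, and every other protein of the organelle is encoded in the nucleus.

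The stretches below show, on chrM of GRCh38 (hg38, 16569 bases), the arrangement that decides which reads can be told apart. The 2 rRNA genes, on which most of the results turn, are separated by a single tRNA gene and followed by another, and capitals mark the bases of the rRNA at chrM:1582-1621, chrM:1651-1690 and chrM:3210-3249, all on the plus strand.
MT-RNR1 into MT-TV: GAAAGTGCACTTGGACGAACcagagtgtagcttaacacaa
MT-TV into MT-RNR2: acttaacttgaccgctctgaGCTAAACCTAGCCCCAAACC
MT-RNR2 into MT-TL1: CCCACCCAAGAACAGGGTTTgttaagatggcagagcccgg
MT-ATP8 and MT-ATP6 share 46 bases, shown within chrM:8515-8584, and MT-ND4L and MT-ND4 share 7, shown within chrM:10748-10778, all on the plus strand. Capitals mark the shared bases, and reads from these pairs are hard to assign.
MT-ATP8 over MT-ATP6: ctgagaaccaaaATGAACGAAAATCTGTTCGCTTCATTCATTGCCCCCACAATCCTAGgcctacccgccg
MT-ND4L over MT-ND4: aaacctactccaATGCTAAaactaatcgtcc
Of the 13 mRNAs, 6 have a length that is not a multiple of 3, because the gene stops inside the last codon and the poly(A) tail completes it. The 3′ ends of the 4 mRNAs that passed the test in some comparison lie at chrM:7422-7445, chrM:4239-4262 and chrM:9967-9990 on the plus strand and at chrM:14149-14172 on the minus strand, and capitals mark the last codon as far as it is encoded.
MT-CO1 3 prime end: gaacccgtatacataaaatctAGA
MT-ND1 3 prime end: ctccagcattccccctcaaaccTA
MT-CO3 3 prime end: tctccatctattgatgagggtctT
MT-ND6 3 prime end: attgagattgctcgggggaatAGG
MT-ND6 is the only mRNA among 9 genes on the minus strand, against 28 genes on the plus strand. The libraries were unstranded, so reads of MT-ND6 and of the opposite transcript over the same bases cannot be told apart.

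Library totals were 25067734 to 47322144 estimated counts. All 22 tRNA genes, 59 to 75 bases long, were listed at 0 in all 36 libraries, and a count of 0 allows a share of at most 1.2e-05% of the shallowest library (3 counts, counting error only). Mature tRNAs are thus not detectable in these data, which says nothing of their level in the cells. The other 15 genes passed the count filter in every line. The labels name the molecule as total RNA, while poly(A) selection or rRNA depletion is not given in the sources used here. Of 8 myeloid markers, 7 in HL60 (ELANE, at 0.131 CPM, was the exception) and 8 in MOLM13 and OCIAML3 were over 1 CPM in DMSO. For cell type markers CPM are counts scaled to the library total, and elsewhere counts scaled to the TMM effective library size. The libraries labelled OCIAML3 cytarabine replicate 3 and OCIAML3 combination replicate 3 stood apart from the rest of their groups. RRM2B, which encodes a p53-induced ribonucleotide reductase subunit that supplies nucleotides to mitochondrial DNA, was at 141, 149 and 224 CPM in the cytarabine libraries and at 321, 299 and 132 CPM in the combination libraries of OCIAML3. The main edgeR tests of OCIAML3, within the line and between lines, were therefore made with and without both of them. DESeq2, the replicate block and the other normalization and filter settings were run only with both included. No library was given another label.

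Levels per length in DMSO were compared as TPM, transcript counts per length scaled to a fixed sum per library. MT-CO3, a core subunit of complex IV (cytochrome c oxidase), was among the highest in each line, at 16590 ± 1757 TPM in HL60, 15331 ± 973 in MOLM13 and 15748 ± 321 in OCIAML3 (mean ± SD, n = 3). In HL60 the order ran MT-ND3, MT-CO3, MT-CO2 and MT-ATP6, each overlapping the next, and then without overlap MT-ND4L at 9087 ± 1609 TPM. In MOLM13 MT-CO3 was followed by MT-ND3 and MT-CO1, which overlapped each other, and in OCIAML3 MT-CO3 stood above MT-CO2 and MT-CO1 without overlap. At the low end MT-ND5, MT-ND6 and MT-RNR1 lay between 1009 and 2750 TPM in every line. The rRNA MT-RNR2 was at 3016 ± 335 TPM in HL60, 4368 ± 341 in MOLM13 and 5697 ± 421 in OCIAML3, with no overlap between the lines. MT-RNR1, the rRNA of the small subunit, was at 1009 ± 59.4, 2100 ± 675 and 1799 ± 154 TPM, or 0.166 ± 0.0289, 0.237 ± 0.0595 and 0.158 ± 0.00648 counts for each count of MT-RNR2. Levels of the shortest mRNAs rest on a small effective length (18 to 20 bases for MT-ATP8, 44 to 51 for MT-ND4L and 72 to 85 for MT-ND3) and are the least certain of the order.

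**Figure D1:**
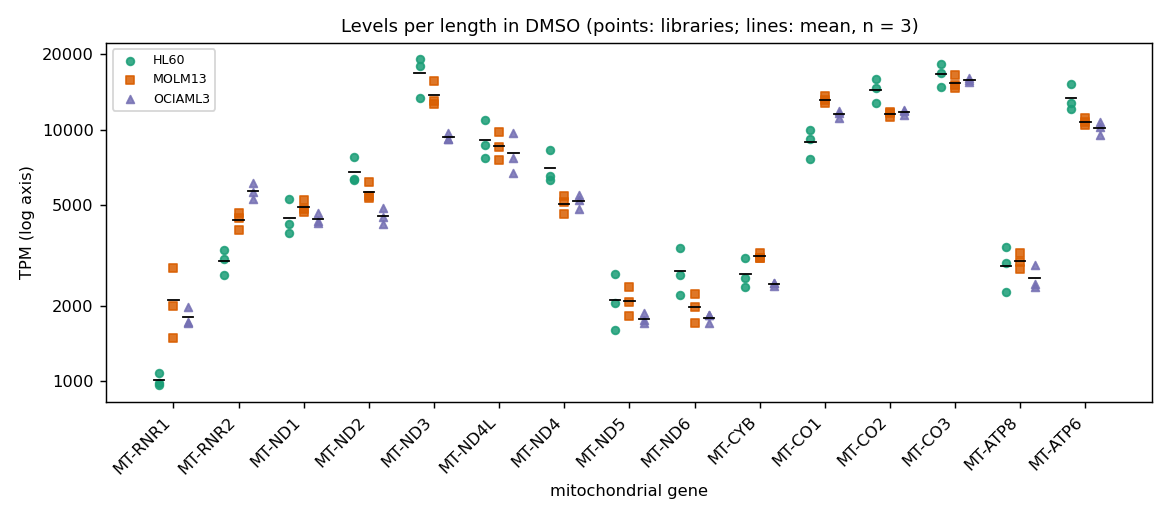
Level per length (TPM, log axis) of the 15 measured mitochondrial genes in the 9 DMSO libraries, with points for libraries and lines for means. MT-CO3 lies between 15331 and 16590 TPM in each line, while MT-RNR2 steps up from 3016 in HL60 to 4368 in MOLM13 and 5697 in OCIAML3.

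The DMSO libraries were compared between the lines. In 1 fit of the 36 libraries (edgeR quasi-likelihood test, Benjamini-Hochberg adjusted over all genes), HL60 was higher than OCIAML3 in 12 of the 15 genes, where 28.1% of all tested genes were higher, and lower in 1, where 34.4% were lower. The largest of the 12 were MT-ND3 (log2 difference 1.14 ± 0.11 SE, adjusted p = 6.1e-10), MT-ND6 (0.94 ± 0.14, 1.7e-06) and MT-ND2 (0.92 ± 0.11, 3.1e-08), all subunits of complex I (NADH dehydrogenase). The gene that was lower was MT-RNR2 (-0.57 ± 0.15, adjusted p = 0.0013), and MT-CO1 was at -0.03 ± 0.10 (adjusted p = 0.82). MOLM13 was higher than OCIAML3 in all 13 mRNAs (28.1% of all genes were higher and 26.9% lower), from 0.27 for MT-ND4 to 0.95 for MT-ND3, and in neither rRNA. The calls of MT-ND4 and MT-ND4L there were lost with RLE normalization (adjusted p = 0.060 and 0.072) and with DESeq2 (0.055 and 0.065). Between HL60 and MOLM13, 5 genes were higher in HL60 (22.7% of all genes) and 3 were lower (30.3%). The 3 were MT-RNR1 (-1.04 ± 0.26), MT-CO1 (-0.54 ± 0.10) and MT-RNR2 (-0.50 ± 0.15), and the 5 were MT-ND4, MT-ND6, MT-CO2, MT-ATP6 and MT-ND2, at 0.29 to 0.49.

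Mitochondrial transcripts together made up 3.79% to 7.40% of a library (median 5.19%). The 13 mRNAs took 4.05%, 4.71% and 4.04% of the counts in DMSO-treated HL60 cells. Cytarabine gave 5.03%, 6.02% and 5.26%, daunorubicin 5.05%, 5.53% and 4.73% and the combination 5.24%, 6.06% and 4.84%. Every treated HL60 library was thus above every DMSO library, at 1.27, 1.20 and 1.26 times the DMSO mean. In MOLM13 the DMSO libraries were at 4.16%, 4.24% and 4.03%, those given cytarabine at 4.65%, 4.65% and 4.48%, those given daunorubicin at 4.82%, 4.81% and 4.87% and those given both at 4.63%, 4.87% and 4.95%. These groups did not overlap with DMSO either, at 1.11, 1.17 and 1.16 times its mean. As a share of TPM, by contrast, the mRNAs overlapped with DMSO in all 3 treated groups of HL60 and in MOLM13 with daunorubicin and the combination. In OCIAML3 the mRNAs took 3.21% to 3.80% in all 12 libraries, and each treated group overlapped with DMSO. No p is given for these sums. A share of the library also moves with what the other genes do: on library totals the median of all tested genes lay at a log2 ratio of 0.24, 0.09 and 0.30 in HL60 for cytarabine, daunorubicin and the combination in turn, beside 0.35, 0.26 and 0.33 for the summed mRNAs. On the TMM scale, which centres the bulk of genes, the summed mRNAs were at 0.12 after cytarabine and 0.08 after the combination. In MOLM13 the median of all genes on library totals was 0.12, 0.12 and 0.14, beside 0.15, 0.22 and 0.22 for the mRNAs.

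The 2 rRNAs took a smaller part of the library and moved further. In HL60 they took 0.431%, 0.430% and 0.374% in DMSO, 0.885%, 1.02% and 0.971% under cytarabine, 0.620%, 0.658% and 0.512% under daunorubicin and 0.902%, 1.34% and 0.863% under both. All 9 treated libraries were above DMSO, at 2.33, 1.45 and 2.52 times its mean. In MOLM13 they took 0.670%, 0.541% and 0.613% in DMSO, 1.18%, 0.847% and 0.997% under cytarabine, 1.08%, 1.01% and 1.05% under daunorubicin and 1.03%, 1.15% and 1.50% under both. The treated means were 1.66, 1.72 and 2.02 times that of DMSO, again with no overlap. OCIAML3 stayed between 0.584% and 0.855% in all 12 libraries, and the groups overlapped. Without OCIAML3 combination replicate 3, the other two combination libraries were above DMSO in mRNAs (3.56% and 3.77%, log2 ratio 0.12) and in rRNAs (0.855% and 0.830%, 0.35). The ratio of rRNA to mRNA counts depends on neither the library total nor the normalization. It may depend on RNA selection and on RNA quality, which are not given for each library and were not tested. In HL60 it was 0.0968 ± 0.00855 in DMSO, 0.177 ± 0.00782 under cytarabine, 0.117 ± 0.00759 under daunorubicin and 0.191 ± 0.0269 under both drugs. In MOLM13 it was 0.147 ± 0.0173 in DMSO, 0.219 ± 0.0356, 0.216 ± 0.00721 and 0.254 ± 0.0436. Treated libraries lay above DMSO without overlap in all 6 of these groups, and in OCIAML3 (0.196 ± 0.00744 in DMSO) they overlapped in each. There the overlap with the combination rests on replicate 3 (0.182), since replicates 1 and 2 (0.240 and 0.220) were above all DMSO libraries.

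**Figure D2:**
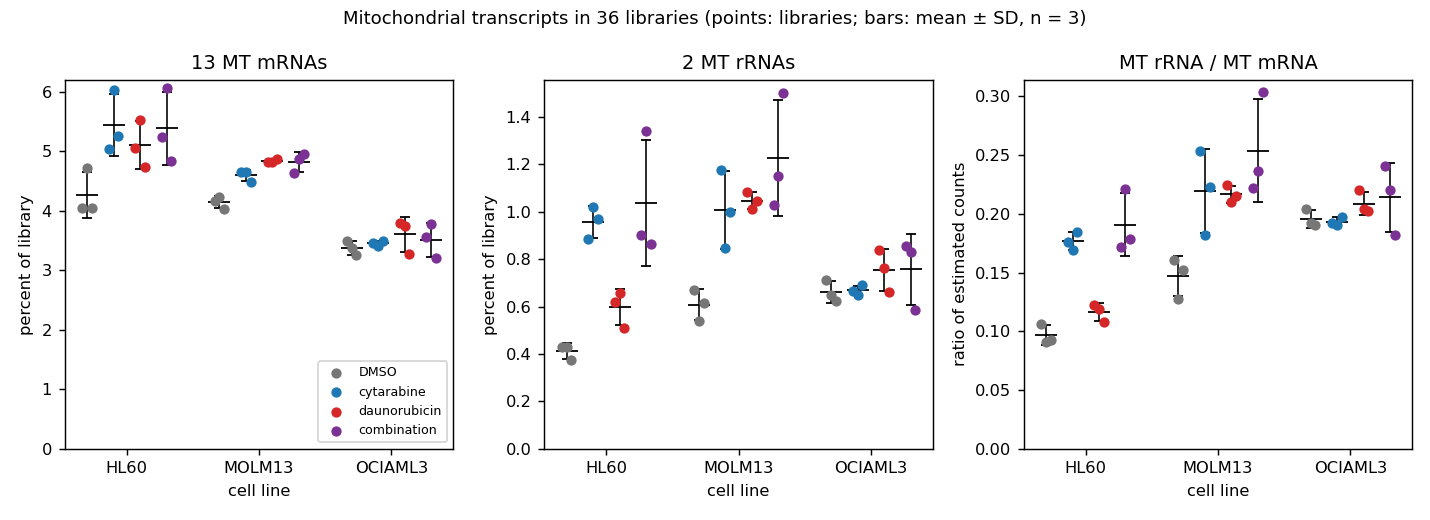
Share of each library taken by the 13 mitochondrial mRNAs and by the 2 rRNAs (percent), and the ratio of rRNA to mRNA counts, in 36 libraries (points) with mean and SD of each group (bars, n = 3). The ratio stands above DMSO in every treated group of HL60 and MOLM13, from 0.0968 to 0.191 in HL60 with the combination, and overlaps with DMSO in OCIAML3.

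Each gene was then tested within its line (edgeR quasi-likelihood test, Benjamini-Hochberg adjusted over all genes, 12 libraries a line). In HL60, cytarabine raised 3 of the 15 genes at a false discovery rate under 0.05 (23.6% of all tested genes rose), daunorubicin 2 (12.8%) and the combination 3 (28.1%). In MOLM13 cytarabine raised 2 (17.1%), daunorubicin 4 (26.9%) and the combination 3 (27%). No mitochondrial gene fell in these 6 comparisons, in which 22%, 9.14% and 25.3% of all genes fell in HL60 and 17.8%, 25.7% and 26% in MOLM13. With other settings some did fall: MT-ATP8 in MOLM13 with the combination (-0.31, adjusted p = 0.035 with DESeq2 and 0.049 with RLE normalization), and, without the count filter, MT-ND5 (-0.36, 0.028) and MT-ND4L (-0.33, 0.036) in HL60 with the combination. In OCIAML3 no mitochondrial gene passed with any treatment (0% of all genes higher or lower in each of the 3 comparisons), DESeq2 called none, and none had an unadjusted p under 0.05 in edgeR (1.53%, 30.5% and 23.3% of all genes had). Past a 2-fold change there was 1 gene each, MT-RNR2, in HL60 with cytarabine (13.7% of all genes), HL60 with the combination (17%) and MOLM13 with the combination (11.8%), and none in HL60 with daunorubicin (6.76%) or in MOLM13 with cytarabine (7.11%) or daunorubicin (11.3%). Since 2 to 4 of 15 genes is a share near or below that of all genes, what follows describes which members moved. With the replicate number as a block, which pairs the HL60 samples, 4, 5 and 4 genes rose in HL60 with cytarabine, daunorubicin and the combination (28.4%, 19.3% and 32.5% of all genes) and 0, 0 and 3 fell (28.5%, 18.3% and 30.5%). All comparisons within a line share its 3 DMSO libraries.

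**Figure D3:**
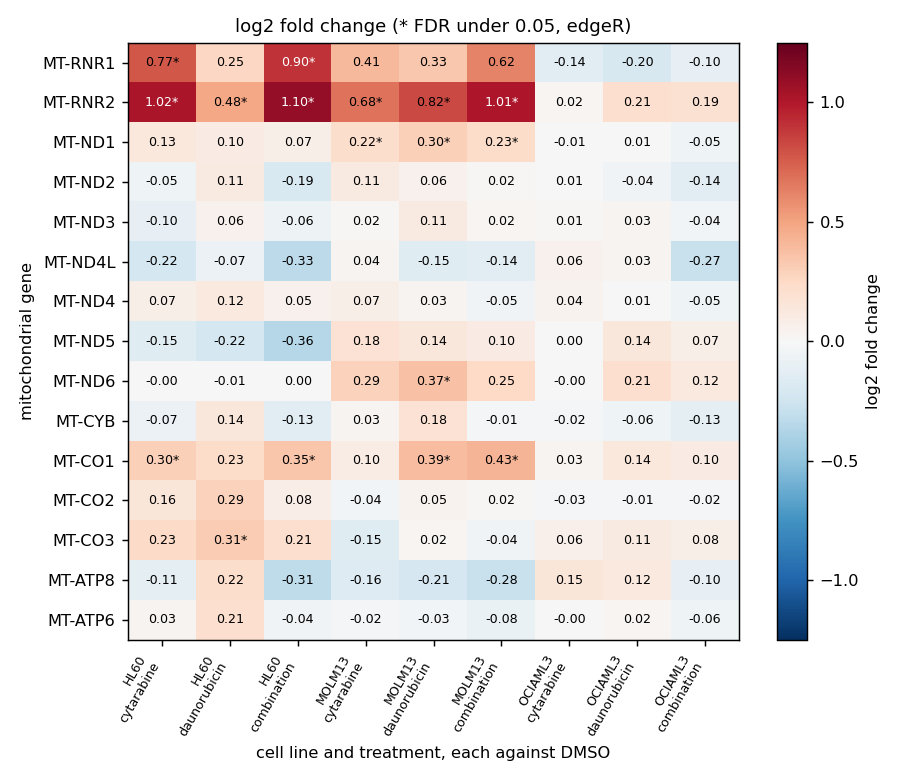
log2 fold change of the 15 measured mitochondrial genes (vertical axis) in each line and treatment against DMSO (horizontal axis), with an asterisk where the false discovery rate is under 0.05. MT-RNR2 is marked in all 6 columns of HL60 and MOLM13, with values of 0.48 to 1.10, and no gene is marked in OCIAML3.

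MT-RNR2, the rRNA of the large subunit of the mitochondrial ribosome, rose with every treatment in HL60 and MOLM13. In HL60 it was at 4391, 4239 and 3583 CPM in DMSO and at 7367, 8773 and 8654 under cytarabine (log2 fold change 1.02 ± 0.15 SE, adjusted p = 0.00012). Daunorubicin gave 5567, 6395 and 5077 CPM (0.48 ± 0.14, adjusted p = 0.031) and the combination 7562, 10964 and 7717 CPM (1.10 ± 0.15, 3.6e-05). All 9 treated libraries were above the 3 DMSO libraries, and combination replicate 2 was the highest. The daunorubicin call was lost without daunorubicin replicate 1 (adjusted p = 0.0784) or 2 (0.135) and without DMSO replicate 2 (0.0604) or 3 (0.127). In MOLM13 it was at 5551, 4955 and 5431 CPM in DMSO and at 9798, 7404 and 8326 under cytarabine (0.68 ± 0.12, adjusted p = 0.0015), 9579, 9356 and 9272 under daunorubicin (0.82 ± 0.12, 0.00021) and 8999, 10416 and 12759 under the combination (1.01 ± 0.12, 5.9e-05). These groups did not overlap with DMSO, and their calls held with each library left out. In OCIAML3 it was at 6526, 5983 and 5617 CPM in DMSO, 6127, 6007 and 6268 under cytarabine, 7882, 7084 and 6014 under daunorubicin and 7656, 7544 and 5421 under both. These values overlapped, with log2 fold changes of 0.02, 0.21 and 0.19 (adjusted p = 1.0, 0.28 and 0.37). Without the pair of libraries that stand apart, MT-RNR2 rose with the combination in OCIAML3 by 0.33 ± 0.11 (adjusted p = 0.029, where 20.1% of all genes rose and 21.6% fell), and no other mitochondrial gene passed, also not with cytarabine (0% of all genes) or daunorubicin (15.3% rose and 16% fell).

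MT-RNR1 was less even between libraries. In HL60 it was at 679, 615 and 714 CPM in DMSO and at 1118, 1277 and 1031 after cytarabine (0.77 ± 0.26, adjusted p = 0.026), with no overlap. With the combination it was at 1199, 1869 and 689 CPM (0.90 ± 0.26, adjusted p = 0.0095), where replicate 3 lay among the DMSO libraries and leaving out replicate 2 lost the call (0.50, adjusted p = 0.0641). The cytarabine call was lost without any 1 of the DMSO libraries (adjusted p = 0.0525 to 0.0809), without cytarabine replicate 1 (0.0513) and without cytarabine replicate 2 (0.0791). Daunorubicin gave 983, 704 and 707 CPM in HL60 (0.25 ± 0.26, adjusted p = 0.52). In MOLM13 the DMSO libraries alone spanned 919 to 1676 CPM, and the 3 treated groups (1245 to 2609 CPM) overlapped with them at log2 fold changes of 0.41, 0.33 and 0.62, which did not pass, although the combination did without the count filter (adjusted p = 0.044). In OCIAML3 the log2 fold changes were -0.14, -0.20 and -0.10. The ratio of MT-RNR1 to MT-RNR2 counts fell below all DMSO libraries only in OCIAML3, from 0.158 ± 0.00648 to 0.119 ± 0.00686 after daunorubicin and 0.129 ± 0.00214 after the combination, a description with no test.

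**Figure D4:**
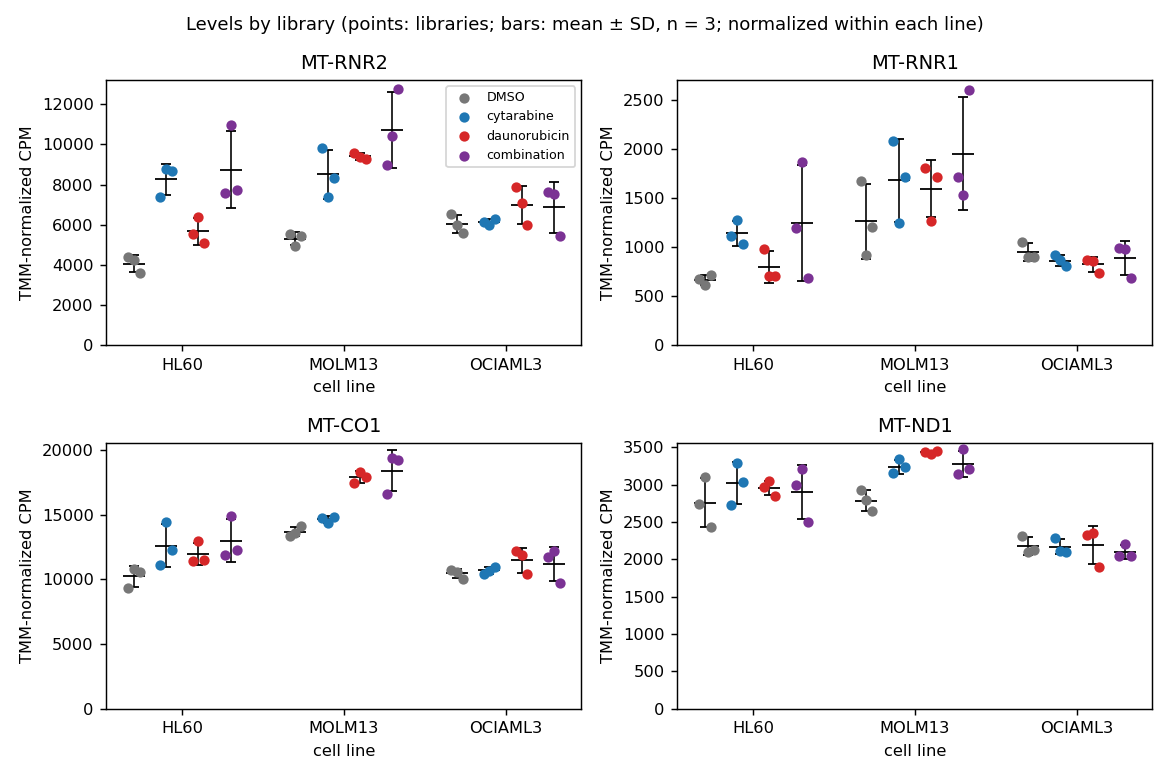
TMM-normalized CPM of MT-RNR2, MT-RNR1, MT-CO1 and MT-ND1 by line and treatment, with points for libraries and bars for mean and SD (n = 3); lines were normalized separately and are not comparable in height. MT-RNR2 lies above DMSO in all treated HL60 and MOLM13 libraries, while the 3 MT-RNR1 libraries of HL60 with the combination run from 689 to 1869 CPM.

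Among the mRNAs, complex IV held the member called most often. MT-CO1, its catalytic subunit, was at 9344, 10819 and 10556 CPM in DMSO-treated HL60 cells. It rose to 11154, 14408 and 12259 CPM after cytarabine (0.30 ± 0.11, adjusted p = 0.047) and to 11883, 14889 and 12257 after the combination (0.35 ± 0.11, 0.021). After daunorubicin it was at 11438, 12947 and 11522 CPM (0.23 ± 0.11, adjusted p = 0.18, and 0.017 with the replicate block), and in all 3 comparisons the treated libraries were above DMSO. The cytarabine call in HL60 was lost without any 1 DMSO or daunorubicin library and without cytarabine replicate 2 or 3 (adjusted p = 0.0551 to 0.215). The combination call was lost without DMSO replicate 1 (adjusted p = 0.0862) or combination replicate 2 (0.106). Without the count filter both HL60 calls were lost (cytarabine 0.0813, combination 0.0583, adjusted p). In MOLM13 MT-CO1 was at 13379, 13597 and 14097 CPM in DMSO and rose to 17451, 18333 and 17945 after daunorubicin (0.39 ± 0.06, adjusted p = 0.00035) and 16585, 19405 and 19274 after the combination (0.43 ± 0.06, 0.00019). With cytarabine it was at 14742, 14358 and 14847 CPM (0.10 ± 0.06, adjusted p = 0.25). The MOLM13 calls held with each library left out. In OCIAML3 it was at 9715 to 12181 CPM over all 12 libraries, and the groups overlapped.

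MT-CO3 rose in HL60 after daunorubicin, from 6783, 7593 and 7414 to 8075, 10072 and 8950 CPM (0.31 ± 0.10, adjusted p = 0.036). This call was lost without any 1 of the DMSO libraries (adjusted p = 0.0549 to 0.114), without daunorubicin replicate 2 (0.174) and without daunorubicin replicate 3 (0.0554), and also without the count filter (0.115). In HL60 it was at 7954 to 9129 CPM after cytarabine (0.23 ± 0.10, adjusted p = 0.066, but 0.019 with the block and 0.040 with DESeq2) and 7725 to 8842 CPM after the combination (0.21 ± 0.10, 0.089, and 0.028 with the block). All these treated libraries were above DMSO. MT-CO2, which carries the entry site for electrons from cytochrome c, was at 0.29 ± 0.13 in HL60 after daunorubicin (adjusted p = 0.12, and 0.013 with the block) and between -0.04 and 0.16 elsewhere.

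Of the 7 complex I subunits encoded in mitochondria, MT-ND1 and MT-ND6 passed in MOLM13 and none passed elsewhere. MT-ND1 was at 2923, 2789 and 2644 CPM in MOLM13 with DMSO. It rose to 3153, 3340 and 3231 CPM with cytarabine (0.22 ± 0.06, adjusted p = 0.010), 3437, 3410 and 3454 with daunorubicin (0.30 ± 0.06, 0.00087) and 3139, 3477 and 3206 when both were given (0.23 ± 0.06, 0.0043), with no overlap with DMSO. The cytarabine call was lost without DMSO replicate 3 (adjusted p = 0.0536), and in the fit of 36 libraries the cytarabine (0.081) and combination (0.072) calls were both lost. MT-ND6 was at 512, 469 and 395 CPM in MOLM13 with DMSO and rose to 575, 641 and 556 CPM after daunorubicin (0.37 ± 0.11, adjusted p = 0.014), a call that was lost without daunorubicin replicate 2 (0.0736) or DMSO replicate 3 (0.0607) and in the fit of 36 libraries (0.060). After cytarabine (523, 634 and 525 CPM) and the combination (529, 590 and 514 CPM) it was at 0.29 and 0.25 and did not pass, though all libraries were above DMSO and DESeq2 called the former (adjusted p = 0.045). In HL60 MT-ND6 was at log2 fold changes of -0.01 to 0.00. MT-ND2, MT-ND3, MT-ND4, MT-ND4L and MT-ND5 lay between -0.36 and 0.18 over the 9 comparisons. With the block, MT-ND2 (-0.20, adjusted p = 0.027) and MT-ND4L (-0.35, 0.032) fell in HL60 with the combination.

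MT-CYB, the only mitochondrially encoded subunit of complex III, lay between -0.13 and 0.18 over the 9 comparisons and passed in none. The ATP synthase subunits MT-ATP6 and MT-ATP8 did not pass in these comparisons either, apart from the settings named here and the call of MT-ATP8 in MOLM13 given above. MT-ATP6 was at -0.08 to 0.21, and with the block it rose in HL60 after daunorubicin (0.21, adjusted p = 0.023). MT-ATP8, the member with the fewest counts, was at -0.31 to 0.22, and with the block it fell in HL60 with the combination (-0.33, adjusted p = 0.018). Over the 13 mRNAs the median log2 fold change was -0.0045, 0.12 and -0.04 in HL60 for the 3 treatments in this order, 0.04, 0.06 and 0.02 in MOLM13 and 0.01, 0.03 and -0.05 in OCIAML3, beside 0.01, 0.01 and 0.04, 0.02, 0.07 and 0.07, and 0.00, 0.01 and 0.01 over all tested genes. Counted by libraries that did not overlap with DMSO, 4, 5 and 3 of the 15 genes were above in HL60 (27.8%, 20.7% and 31.3% of all genes), 4, 5 and 4 in MOLM13 (26.5%, 32% and 30.3%) and none in OCIAML3 (4.59%, 22.8% and 7.78%). Below were 0, 0 and 0 in HL60 (27.2%, 19.6% and 28.8%), 1, 0 and 2 in MOLM13 (26.9%, 30.4% and 29.3%) and 0, 1 and 1 in OCIAML3 (4.65%, 24.1% and 8.23%).

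Where TMM factors were left out and the counts were scaled by library totals, a setting added after seeing the data, 7, 2 and 7 mitochondrial genes rose in HL60 (33.8%, 15.5% and 38.9% of all genes) and 5, 4 and 5 in MOLM13 (22.4%, 29.3% and 30.7%). The added genes were MT-CO2, MT-ND4, MT-ND1 and MT-CO3 in HL60 after cytarabine and after the combination. The shift was shared by genes at large: of all called genes, 74.1%, 72.1% and 71.0% were then higher in HL60, against 51.8%, 58.3% and 52.6% with TMM, and in MOLM13 64.1%, 55.6% and 57.2% against 49.0%, 51.1% and 50.9%. The median of the 13 mRNAs in HL60 was 0.23 after cytarabine on library totals, beside 0.24 over all genes.

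MT-CO1 took a larger part of the mRNA pool in some treated groups. Its share of mitochondrial mRNA counts was 20.9 ± 1.6% in HL60 with DMSO, 23.6 ± 0.59% under cytarabine, 21.6 ± 0.14% under daunorubicin and 25 ± 1.5% under both. In MOLM13 it was 30.6 ± 1.5%, 31.5 ± 1.3%, 35.2 ± 0.95% and 36.9 ± 2.3%, and in OCIAML3 29.3 ± 0.32%, 29.6 ± 1.1%, 30.7 ± 0.31% and 31.0 ± 1.8%. It stood above DMSO without overlap in HL60 with cytarabine and the combination, in MOLM13 with daunorubicin and the combination and in OCIAML3 with daunorubicin. Shares within a pool are tied to each other: MT-ATP6 was at 9.30 ± 0.14% in HL60 with DMSO and 8.50 ± 0.14% with the combination, and at 7.52 ± 0.18% and 6.40 ± 0.22% in MOLM13.

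Nuclear copies of mitochondrial DNA are a known source of shared reads. The copy with the most counts, MTATP6P1 (chr1:633696-634376, plus strand), is 98.5% identical to MT-ATP6 over 681 bases, and its counts were 4.58% of those of MT-ATP6 (3.99% to 5.41% per library). MTCO1P12 (chr1:631074-632616) is 98.6% identical to MT-CO1 over 1543 bases and held 0.248% of its counts, and MTND2P28 (chr1:629640-630683) is 98.4% identical to MT-ND2 and held 0.271%. Counts of such pairs may be divided by the quantification in ways that cannot be resolved here. MTCO1P12 rose together with MT-CO1 in HL60 after cytarabine (0.39 ± 0.13, adjusted p = 0.024) and the combination (0.49 ± 0.13, 0.0057) and in MOLM13 after daunorubicin (0.42 ± 0.10, 0.0034) and the combination (0.48 ± 0.10, 0.0015), the same 4 comparisons in which MT-CO1 was called. MTATP6P1 was at -0.10 to 0.23 in these lines and passed in none.

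Of 23 nuclear genes that transcribe and maintain the mitochondrial genome, 12 fell and 5 rose in HL60 with cytarabine, 4 fell and 2 rose with daunorubicin, and 13 fell and 5 rose when both were given. In MOLM13 the counts were 12 and 3, 11 and 5, and 12 and 6 in the same order. On library totals 8, 2 and 10 fell and 5, 3 and 5 rose in HL60, so that with daunorubicin rises outnumbered falls, and 11, 11 and 12 fell and 4, 6 and 6 rose in MOLM13. With TMM these counts, and those of the lists that follow, stand beside the shares of all genes that rose and fell, given above. On library totals, here and for the lists that follow, 1844, 935 and 2475 of 15608 genes fell in HL60. In MOLM13 2031, 3789 and 3708 of 16184 genes fell on library totals. POLRMT, the RNA polymerase, was at 126, 131 and 129 CPM in HL60 with DMSO and fell to 87.3, 82.8 and 103 CPM after cytarabine (-0.50 ± 0.13, adjusted p = 0.0065) and 73.3, 53.1 and 72.3 after the combination (-0.96 ± 0.13, 4.5e-05). With daunorubicin HL60 was at 127, 107 and 131 CPM (-0.08 ± 0.13, adjusted p = 0.71). In MOLM13 POLRMT fell with every treatment, by 0.54, 0.58 and 0.50 on the log2 scale. TFB2M, the factor that melts the promoter for it, fell by 1.21 and 1.72 in HL60 after cytarabine and the combination, was at -0.43 after daunorubicin (adjusted p = 0.058), and fell by 0.72, 0.76 and 0.76 in MOLM13. TFAM, which packages the genome and activates its promoters, fell by 0.43 and 0.62 in HL60 after cytarabine and the combination and by 0.48, 1.12 and 1.07 in MOLM13. The helicase gene TWNK fell by 1.18 and 1.73 in HL60 after cytarabine and the combination. RRM2B rose from 204, 244 and 204 CPM in MOLM13 with DMSO to 401, 439 and 370 after cytarabine (0.89 ± 0.10, adjusted p = 0.00013), and by 0.77 and 0.90 in HL60 after cytarabine and the combination. The mitochondrial thymidine kinase TK2 (1.28 and 1.64) and PRIMPOL (1.31 and 1.71), which reprimes stalled replication, rose in the same HL60 groups.

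Genes for handling the transcripts and for the ribosome that reads them fell in larger numbers. Of 33 genes for mitochondrial RNA processing and turnover, 20, 3 and 25 fell in HL60 with the 3 treatments in turn and 27, 23 and 24 in MOLM13, and at most 1 rose. The count after daunorubicin in HL60 was 9 with the block. On library totals 17, 1 and 20 fell in HL60 and 20, 20 and 21 in MOLM13, and at most 2 rose. PNPT1, a mitochondrial RNA-degrading enzyme, fell by 0.90, 0.42 and 1.28 in HL60 and by 0.91 in MOLM13 after daunorubicin. TRMT10C, a subunit of the enzyme that releases the 5′ ends of tRNAs, fell by 0.89 and 1.20 in HL60 after cytarabine and the combination. SLIRP, which stabilizes mitochondrial mRNAs, fell by 0.99 and 0.90 in MOLM13 after daunorubicin and the combination. Of 78 tested mitochondrial ribosomal protein genes, 55, 9 and 61 fell in HL60 (63, 31 and 65 with the block) and 58, 63 and 61 in MOLM13. MRPL3 (-1.46), MRPL24 (-1.44) and MRPL19 (-1.37) fell most in HL60 with the combination, and MRPS6 was the only one that rose there (0.77 ± 0.11, adjusted p = 5.2e-05). In MOLM13 MRPS26 and MRPL36 fell by 1.23 and 1.22 after daunorubicin. The protein partners of MT-RNR1 and MT-RNR2 thus fell in the groups in which MT-RNR2 rose, although in HL60 with daunorubicin only 9 of 78 did. On library totals the counts of falling ribosomal protein genes were 27, 3 and 43 in HL60 and 49, 60 and 59 in MOLM13, and the medians kept their sign.

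Nuclear subunits of the respiratory complexes were set beside the mitochondrial ones. Of 73 nuclear subunits of complexes I, III, IV and V, 29, 2 and 41 fell in HL60 and 0, 1 and 1 rose (45, 10 and 55 fell and 1, 7 and 3 rose with the block). In MOLM13, of 72, 30, 40 and 45 fell and 0, 4 and 2 rose. On library totals fewer fell, 12, 1 and 22 in HL60 (1844, 935 and 2475 of all 15608 genes tested). In MOLM13 17, 35 and 41 fell (2031, 3789 and 3708 of all 16184). Rises on library totals were 5, 3 and 7 in HL60 and 2, 4 and 4 in MOLM13. The median log2 fold change was -0.31, 0.02 and -0.37 in HL60 and -0.22, -0.26 and -0.33 in MOLM13, and on library totals -0.07, 0.11 and -0.11 in HL60 and -0.12, -0.21 and -0.26 in MOLM13, with no change of sign. NDUFAB1, an acyl carrier protein in complex I, fell by 0.84 and 1.15 in HL60 after cytarabine and the combination and by 0.47, 0.79 and 0.76 in MOLM13. The catalytic subunit gene ATP5F1B of the ATP synthase fell by 0.71 and 1.00 in the same HL60 groups, COX5A of complex IV by 0.42 and 0.70, and UQCRFS1, the iron-sulfur subunit of complex III, by 0.57 and 0.63. SDHB of complex II, which has no mitochondrially encoded subunit, fell by 0.65 and 0.87 there and by 0.40, 0.41 and 0.40 in MOLM13. In MOLM13, NDUFB5 rose after daunorubicin (0.50 ± 0.09) and the combination (0.51 ± 0.09).

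As a ratio of mean TPM per subunit, mitochondrial complex IV genes stood 21.6 ± 3.43 times above their nuclear partners in HL60 with DMSO and 29.6 ± 6.02 and 30.4 ± 6.90 times after cytarabine and the combination, with no overlap with DMSO. After daunorubicin the ratio was 24.8 ± 3.31 and overlapped. In MOLM13 it was 19.3 ± 0.949 with DMSO, 21.9 ± 1.73 with cytarabine (overlapping), 25.9 ± 0.697 with daunorubicin and 27.0 ± 3.81 with the combination. For complex I the ratio was 27.7 ± 1.75 in MOLM13 with DMSO and 33.1 ± 1.03, 35.5 ± 0.859 and 35.2 ± 2.87 with treatment, all above DMSO, and it overlapped in HL60. Its mitochondrial part in MOLM13 was 5545 to 6558 TPM in DMSO and overlapped with daunorubicin (6204 to 6338) and the combination (6037 to 6185). The nuclear part was 211 to 221 TPM in DMSO and lower without overlap, at 175 to 180 and 159 to 192. With cytarabine each part overlapped. MT-ND3 and MT-ND4L, among the least certain levels, enter the mitochondrial part. In OCIAML3 the ratios of complexes I, III, IV and V overlapped with DMSO in every treatment. With the combination this rests on replicate 3 for complexes IV and V, since replicates 1 and 2 were above all DMSO libraries for complex IV (27.7 and 27.1) and for complex V (14.5 and 13.7).

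**Figure D5:**
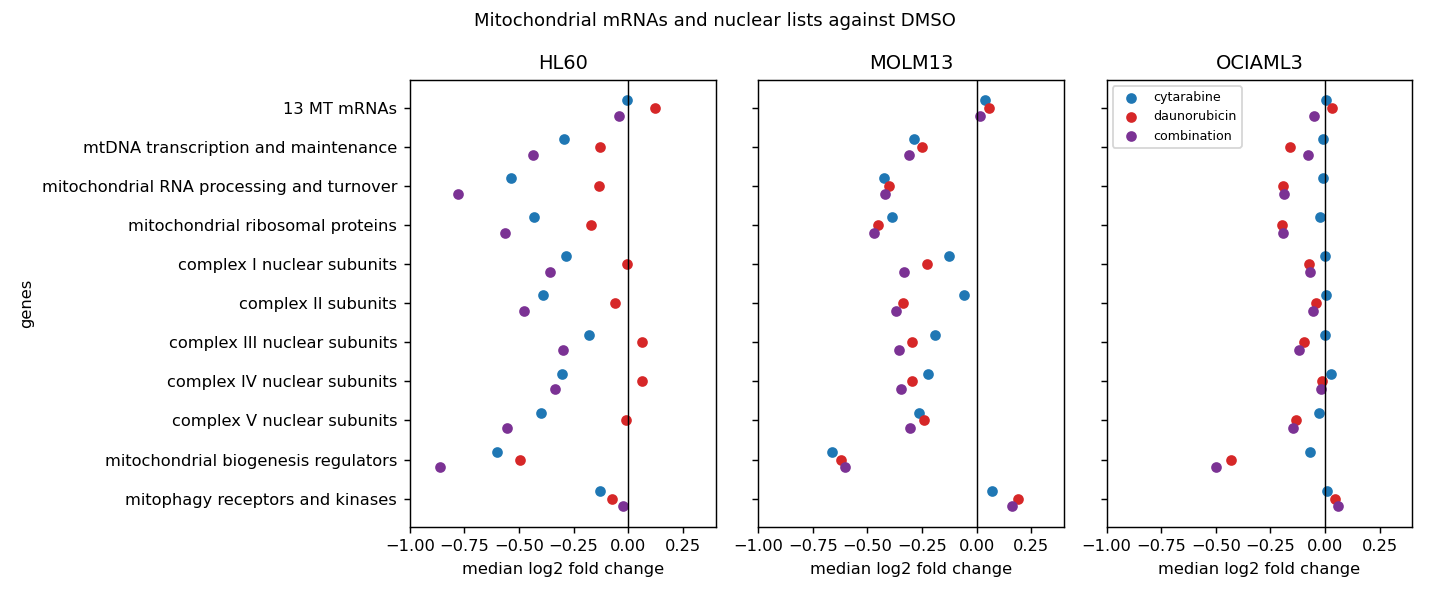
Median log2 fold change against DMSO of the 13 mitochondrial mRNAs and of each nuclear gene list, by line, with a point for each treatment. The mRNAs lie between -0.05 and 0.12, while the mitochondrial ribosomal protein genes lie at -0.43, -0.17 and -0.56 in HL60 and between -0.47 and -0.39 in MOLM13.

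Regulators of mitochondrial biogenesis fell in HL60 and MOLM13. All 7 tested genes fell in HL60 after cytarabine and the combination, 5 after daunorubicin (7 with the block), and 7 with each treatment in MOLM13. Of all genes 22%, 9.14% and 25.3% fell in HL60 with cytarabine, daunorubicin (18.3% with the block) and the combination. In MOLM13 17.8%, 25.7% and 26% of all genes fell. On library totals 5, 4 and 6 fell in HL60 and 6 with each treatment in MOLM13. NRF1, a transcription factor for nuclear genes of the respiratory chain, was at 32.8, 32.2 and 39.7 CPM in HL60 with DMSO and fell to 14.3, 12 and 14.2 with cytarabine (-1.37 ± 0.16, adjusted p = 3.3e-05), 11.2, 11.8 and 17.3 with daunorubicin (-1.38 ± 0.16, 0.00016) and 13.2, 12.9 and 12.7 when both were given (-1.43 ± 0.16, 1.2e-05). All treated libraries were well below DMSO, and NRF1 fell by 1.05, 1.01 and 0.94 in MOLM13. The coactivator gene PPRC1 fell by 1.03, 0.52 and 1.49 in HL60. Mitophagy genes, which mark and remove damaged mitochondria, were mixed: of 9 tested in HL60, 3, 1 and 4 rose and 3, 1 and 3 fell, and of 10 in MOLM13, 3, 5 and 4 rose and 2 fell with each. Of all genes 23.6%, 12.8% and 28.1% rose in HL60 and 17.1%, 26.9% and 27% in MOLM13. With so few genes tested, the mitophagy counts are a description and no result about the list. PINK1, the kinase that starts mitophagy, rose from 13.1, 14.8 and 13.3 CPM in HL60 to 33, 41 and 31 with cytarabine (1.35 ± 0.15), 29.1, 33.1 and 24.1 with daunorubicin (1.06 ± 0.15) and 44.4, 52.5 and 43.1 when both were given (1.76 ± 0.15). It rose by 0.85, 0.91 and 0.95 in MOLM13, while the receptor gene BNIP3 fell in all 6 groups, by 0.39 to 0.85. On library totals the BNIP3 calls were lost in HL60 with daunorubicin (adjusted p = 0.068) and in MOLM13 with cytarabine (0.061).

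In OCIAML3 no gene of these nuclear lists passed with all 12 libraries. Without the pair that stand apart, none passed with cytarabine. With daunorubicin 35 of 78 ribosomal protein genes, 14 of 33 RNA processing genes and 16 of 71 nuclear respiratory subunits fell, where 16% of all genes fell. With the combination 54, 18 and 29 fell, where 21.6% of all genes fell. MT-RNR2 with the combination remained the only mitochondrial gene called.

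The combination was also tested against each drug alone. In HL60 MT-RNR2 was higher with the combination than with daunorubicin (0.62 ± 0.15, adjusted p = 0.0052), the only member called (16.1% of all genes were higher and 16.9% lower). DESeq2 also called MT-RNR1 higher and MT-CYB and MT-ATP8 lower. With the block MT-RNR2 and MT-RNR1 were higher (23.5% of all genes) and MT-CO2, MT-CYB, MT-ND2, MT-ATP6 and MT-ATP8 lower (23.7%), the last 5 at -0.57 to -0.21. In MOLM13 MT-CO1 was higher with the combination than with cytarabine (0.33 ± 0.06, adjusted p = 0.0054, where 12.5% of all genes were higher and 13.9% lower), and DESeq2 also called MT-RNR2. No member passed with the combination against cytarabine in HL60, against daunorubicin in MOLM13 or against either drug in OCIAML3 (0% of all genes). Without OCIAML3 combination replicate 3, MT-RNR2 was higher there with the combination than with cytarabine (0.32, adjusted p = 0.037), and without both libraries that stand apart it was at 0.32 and did not pass (0.053). With all 12 libraries of a line, none of the 15 had in these 4 comparisons an unadjusted p under 0.05 in edgeR (8.6%, 1.98%, 9.12% and 2.15% of all genes had), and DESeq2 called none.

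Whether the lines differed in their response was tested as an interaction over the 36 libraries. The response of MT-RNR2 was larger in HL60 than in OCIAML3 to cytarabine (log2 difference 1.05 ± 0.21, adjusted p = 0.00046, the only member called, where 12.6% of all genes were larger and 10.5% smaller) and to the combination (0.95 ± 0.21, 0.00097). MT-RNR1 also passed for the combination (1.04 ± 0.36, adjusted p = 0.032, with 14.3% of all genes larger and 12.4% smaller). In MOLM13 the response of MT-RNR2 to the combination was larger than in OCIAML3 (0.77 ± 0.21, adjusted p = 0.017, with 3.48% of all genes larger and 8.71% smaller). Without the pair of OCIAML3 libraries that stand apart, MT-RNR1 in HL60 (0.87, adjusted p = 0.098) and MT-RNR2 in MOLM13 (0.62, 0.063) no longer passed for the combination, and MT-RNR2 in MOLM13 against OCIAML3 passed for cytarabine (0.67, 0.035) and daunorubicin (0.56, 0.049). Between HL60 and MOLM13, MT-CO3 differed in response to cytarabine (0.44 ± 0.13, adjusted p = 0.031, with 5.73% of all genes larger in HL60 and 2.65% smaller), being at 0.29 in HL60 and -0.15 in MOLM13 in this fit. Without the same pair, MT-CO3 also differed between HL60 and MOLM13 for daunorubicin (0.35, adjusted p = 0.047) and the combination (0.34, 0.047). With all 36 libraries no member passed for daunorubicin in HL60 against MOLM13 (13.9% of all genes larger and 6.69% smaller), HL60 against OCIAML3 (3.46% and 1.75%) or MOLM13 against OCIAML3 (3.29% and 7.47%), for cytarabine in MOLM13 against OCIAML3 (1.89% and 2.67%) or for the combination in HL60 against MOLM13 (17.3% and 10.1%). At an unadjusted p under 0.05 in edgeR there were 3, 1, 1, 1 and 1 members in these 5 comparisons, beside 31.8%, 18.6%, 25.3%, 20.5% and 36.9% of all genes. DESeq2 was not run on them.

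Some other measures moved as well, not only in groups where the mitochondrial rRNAs rose. Their part in these results was not tested. SNORD3A, a small nucleolar RNA without a poly(A) tail, was called higher in HL60 after cytarabine (2.46 ± 0.75, adjusted p = 0.016) and the combination (2.96 ± 0.75, 0.0044). There it lay near the floor, at 0.115, 0.383 and 0.103 CPM in DMSO, 0.380 to 1.90 with cytarabine and 0.566 to 2.74 with the combination. In HL60 it passed the count filter through the groups in which it was high, so these p-values are no support for a rise. In MOLM13 SNORD3A rose with each treatment (1.83, 1.59 and 2.61). RN7SK, also without a poly(A) tail but not a small nucleolar RNA, rose in HL60 with the combination (1.19 ± 0.46, adjusted p = 0.043) and in MOLM13 (1.98, 1.11 and 2.01). Of 8 tested RNAs of this kind, SNORD3A included, 1, 0 and 2 passed as higher in HL60 (23.6%, 12.8% and 28.1% of all genes). In MOLM13 2 rose with each treatment (17.1%, 26.9% and 27%) and 1 fell with daunorubicin (25.7%). The summed library share of these RNAs overlapped with DMSO in all 6 groups. That sum was mostly RN7SL1 and RN7SL2, so it says little of SNORD3A or RN7SK. Scaled to the library total, RN7SL1 and RN7SL2 were at 436 ± 422 and 670 ± 481 CPM in HL60 with DMSO. In OCIAML3 the summed share was above DMSO (0.0294 ± 0.000647%) without overlap with cytarabine (0.0340 ± 0.00418%) and daunorubicin (0.0331 ± 0.00231%), and it overlapped with the combination. The nuclear retained RNAs MALAT1 and NEAT1 summed to 0.0366 ± 0.00451% of the MOLM13 DMSO libraries and 0.0636 ± 0.00315%, 0.120 ± 0.0109% and 0.132 ± 0.0339% of the treated ones, with no overlap. Nor did they overlap in HL60, at 0.0291 ± 0.00467% in DMSO and 0.0516 ± 0.0194%, 0.0478 ± 0.0151% and 0.0676 ± 0.0280% with treatment. In OCIAML3 they were at 0.0524 ± 0.00685% in DMSO and 0.0945 ± 0.0205% with daunorubicin, without overlap, although the mitochondrial rRNA share overlapped there. With cytarabine (0.0572 ± 0.0154%) and the combination (0.102 ± 0.0495%) OCIAML3 overlapped with DMSO. Of 14 markers of other cell types, 1 (CD79A) was over 1 CPM in DMSO-treated HL60 cells, their sum went from 3.50 to 4.13 CPM in DMSO to 11.8 to 16.1 with cytarabine and 13.7 to 18 with the combination, and HBA1, PPBP and PF4 were at 0 in all 12 libraries. In MOLM13 the sum was 2.36 to 2.89 CPM in DMSO and 2.86 to 6.94 with treatment, with PPBP and PF4 at 0. In these bulk samples fewer cells of a kind and less RNA per cell cannot be told apart.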

How the data were processed

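The authors checked reads with FastQC 0.11.9, quantified them in Salmon 1.8.0 (Ensembl GRCh38 transcripts, with genomic decoys), and used edgeR 3.38.1 (tools per the submitters' notes). The authors deposited estimated counts per transcript, not normalized, and TPM, which Salmon computes from the estimated counts and effective lengths. Of 252199 transcripts, 235378 could be assigned through GENCODE 44 to 59041 genes, and the remainder held 3.99% to 4.52% of the counts. Estimated counts were summed per gene, rounded, passed through filterByExpr (minimum count 10, minimum total 15), scaled by TMM and tested with glmQLFit and glmQLFTest (legacy quasi-likelihood) in edgeR 4.0.16 under R 4.3.3, within each line without a block, and over 36 libraries between lines. The threshold was a false discovery rate under 0.05 after Benjamini-Hochberg adjustment, and the count past a log2 fold change of 1 is given beside it. Standard errors were taken as the absolute log2 fold change over the root of F. Sums over members got no test.

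Replicate libraries of a group differed by far more than sampling noise (chi-square per gene at least 6.81). Same-numbered HL60 samples deviated together (correlations 0.105 to 0.382 over 18 pairs), and the HL60 samples were therefore treated as paired in the block, a pairing seen in the data that no label states. The corresponding ranges were -0.0115 to 0.39 in MOLM13 and -0.283 to 0.484 in OCIAML3. Of the pairs of groups in these lines, every correlation was over 0.1 only for daunorubicin and combination in OCIAML3 (0.121 to 0.484), where the block called 0 members. Sequences and coordinates were read from hg38, and 37 of 37 lengths equal those of GENCODE 44. Alternatives were DESeq2 1.42.0, RLE, no filter, mitochondrial genes left out of the normalization, all 36 libraries in 1 fit, the block, other denominators of the share, each library left out, and 2 chosen after seeing the data (library totals, and OCIAML3 without 2 libraries). The steps were tested on simulated counts. Other code ran in Python 3.11.15, pandas 2.3.3, numpy 2.4.6, Biopython 1.88 and matplotlib 3.10.9.

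The members and gene lists were chosen with earlier results of these data known. Named are all 37 mitochondrial genes, for each nuclear list up to 3 members per direction with the largest called change in a comparison, POLRMT, TFAM, TFB2M and RRM2B always, and the nuclear copies with the most counts. Examples within the rule were picked after their values were seen.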

Additional observations from a re-analysis of the deposited data

Results flagged for a closer look

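Differences in response between lines that passed the interaction test (edgeR quasi-likelihood, Benjamini-Hochberg adjusted over all genes, 36 libraries) were looked at again. The MT-RNR2 response exceeded that of OCIAML3 in HL60 by 1.05 ± 0.21 (log2) with cytarabine and 0.95 ± 0.21 with the combination, and both held without the pair of OCIAML3 libraries that stand apart (1.06, adjusted p = 0.00034, and 0.79, adjusted p = 0.0047). In MOLM13 it exceeded OCIAML3 by 0.77 ± 0.21 with the combination, a call that was lost without that pair. For MT-RNR1 the combination difference between HL60 and OCIAML3 was 1.04 ± 0.36, also lost without the pair, and in HL60 it rests on combination replicates 1 and 2, since replicate 3 lay among the DMSO libraries. MT-CO3 differed by 0.44 ± 0.13 between HL60 and MOLM13 with cytarabine. In the same fit its response passed in HL60 (0.29, adjusted p = 0.013) and not in MOLM13 (-0.15, adjusted p = 0.23), while in the fit of each line alone neither passed. No cause of these differences was tested.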

How the results depend on the processing

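Of 246 values of counts and sums under another setting, 209 kept their size and 37 moved. Of 3939 single gene values, 3786 kept their side of the threshold, 75 gained the call and 78 lost it. None reversed among called genes or among sums that did not overlap with DMSO. The sign of other genes could change: in HL60 with cytarabine 6 of 13 mRNAs were positive with TMM and 13 of 13 on library totals. The cause was not tested.

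On the TMM effective library size the summed mRNAs were at a log2 ratio of 0.12 (HL60 cytarabine), 0.083 (HL60 combination), 0.053, 0.18 and 0.15 (MOLM13 cytarabine, daunorubicin, combination) and the summed rRNAs at 0.99 (HL60 cytarabine). As a share of TPM the MOLM13 mRNAs were at 0.11, 0.069 and 0.050 and the rRNAs after daunorubicin at 0.65. Against nuclear protein-coding counts the mRNAs after daunorubicin in MOLM13 were at 0.26. On library totals 7 genes passed in HL60 with cytarabine and with the combination (2 each past 2-fold) and 5 in MOLM13 with cytarabine and with the combination. Without the filter 1 passed in HL60 with daunorubicin, and in the fit of 36 libraries 1 in MOLM13 with cytarabine. The 2-fold count of 1 in MOLM13 with the combination became 0 with RLE, without the filter, with mitochondrial genes left out of the normalization, with DESeq2 and with 36 libraries. Without the pair of OCIAML3 libraries, 1 gene passed there with the combination. Between lines, RLE gave 2 for cytarabine in HL60 against OCIAML3. With 34 libraries, cytarabine in MOLM13 against OCIAML3, daunorubicin in HL60 against MOLM13 and in MOLM13 against OCIAML3, and the combination in HL60 against MOLM13 and against OCIAML3 gave 1 each, and the combination in MOLM13 against OCIAML3 gave 0.

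With the replicate block, 5 and 7 genes passed in HL60 with daunorubicin and the combination, 7 in the combination against daunorubicin, and 5 and 5 in MOLM13 with cytarabine and the combination (MT-ND6, MT-ND5 and, lower, MT-CO3 added with cytarabine, MT-ND6 and MT-RNR1 with the combination). The block moved no other count by over 1.5 times.

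With 1 library left out, the counts ranged over 1 to 4, 0 to 2 and 1 to 3 in HL60 (cytarabine, daunorubicin, combination), 1 to 3, 3 to 5 and 3 to 5 in MOLM13 and 0 to 1 in OCIAML3 with the combination. Past 2-fold they were 0 to 1, 0 to 0 and 0 to 2 in HL60 and 0 to 1 in MOLM13 with the combination. Depth limits MT-ATP8 most, with at most 2383 counts, and the tRNAs, with none.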
